A study of Mus musculus with 15 samples.

Results

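In all, 87 nuclear genes named as subunits of the mitochondrial respiratory chain and ATP synthase were followed across 15 bulk RNA-seq libraries of mouse forebrain. They are the protein-coding genes of the count table whose symbols begin with Nduf followed by a, b, c, s or v and a digit, with Uqcr, with Cox and a digit from 4 to 8, or with Atp5, and the genes Sdha, Sdhb, Sdhc and Sdhd, each Ensembl identifier taken once. The rule used names only and picked 87 of 55487 identifiers: 36 subunits of complex I, 4 of complex II, 8 of complex III, 21 of complex IV and 18 of ATP synthase (complex V). A subunit gene whose symbol does not match these patterns is not among them. Of these, 85 had enough reads to be tested. Cox8c and a second identifier named Atp5o had no read in any library.

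The forebrains came from wildtype mice in 5 groups of 3 libraries. NT mice had no treatment. PLX1X and PLX3X_CD0 are described in the titles as treated with PLX 1x and PLX 3x. The PLX3X_CD30 libraries carry that library name but are titled only as PLX treated, and the IR libraries are titled IR-BMT. Dose, timing, age, sex, the meaning of CD0 and CD30 and the origin of any transplanted cells are not stated in the labels. Whether each library of a group is its own animal is also unstated, and the p-values below reflect library-to-library spread that may be partly technical. Tissue of a whole forebrain mixes many cell types, and a lower level of a transcript can mean fewer cells of a type or less RNA per cell, which bulk libraries cannot tell apart.

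The respiratory chain passes electrons from NADH (complex I) and succinate (complex II) through ubiquinone, complex III and cytochrome c to oxygen at complex IV. Complexes I, III and IV pump protons across the inner mitochondrial membrane, and ATP synthase uses the return flow to make ATP. Mitochondrial DNA encodes a few central membrane subunits of complexes I, III, IV and V, while all of the genes described here are transcribed in the nucleus, translated in the cytosol and imported. In brain, this machinery supplies most of the ATP for ion pumping and synaptic signalling. Some subunits take part directly in electron transfer or in making ATP, and others, many of them short proteins, support assembly and stability. Role names used below, such as core, do not state that a subunit carries a redox centre.

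The count totals were 19249641 in NT replicate 1, the shallowest library, and up to 54801136. NT replicate 1 also stood apart in composition: over all tested genes with transcripts under 700 bases, its median deviation from the 15-library mean was 0.465 on the log2 scale, against -0.142 to 0.131 in the other 14 libraries. The counts over all subunit genes, and those of several roles and lists, are given with and without it. Levels are given as CPM, a gene's reads scaled to a common library size with TMM factors. The labels were checked against markers: the 16 microglial markers summed to 667 to 809.7 CPM in NT, 52.7 to 99.5 in PLX1X, 45.8 to 95.6 in PLX3X_CD0, 314 to 331 in PLX3X_CD30 and 329 to 365 in IR. The neuronal, astrocyte, myelin and striatal markers were all detected in every group.

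Among subunit genes called in IR mice, those with the largest rise and fall, Ndufs7 and Uqcrb, differ in base composition, a property that the results below return to. The lines give the first 90 coding bases of each, read from GENCODE M21 transcripts (GRCm38, the assembly also called mm10), 5′ to 3′, with G and C in capitals. The Ndufs7 stretch lies in 3 coding exons on the plus strand (chr10:80249476-80253110), and the Uqcrb stretch in 2 coding exons on the minus strand (chr13:66902731-66905311).
Ndufs7: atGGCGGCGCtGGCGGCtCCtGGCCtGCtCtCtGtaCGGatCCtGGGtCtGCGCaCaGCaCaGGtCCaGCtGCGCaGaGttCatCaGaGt
Uqcrb: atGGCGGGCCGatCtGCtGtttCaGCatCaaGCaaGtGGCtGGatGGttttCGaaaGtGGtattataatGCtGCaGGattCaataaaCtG
G and C made up 64.4% of the Ndufs7 stretch and 59.6% of its 983-base transcript, and 45.6% and 42.2% for Uqcrb, whose transcript has 535 bases.

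Promoter windows of 300 bases (250 before and 50 after the annotated start) came from RefSeq on GRCm38.p6 and matched 68 of the 87 genes by gene ID. Exact matches on either strand were sought to GCGCATGCG (bound by nuclear respiratory factor 1), CCGGAAGT (ETS family, which includes GA-binding protein) and AAGATGGCG (YY1), factors known to act on respiratory genes. The first was found in 8 of 68 subunit genes (11.8%, against 1.95% of 27025 genes in the table). The second was found in 5 (7.4% against 4.31%) and the third in 7 (10.3% against 1.64%). In all, 19 of 68 held at least 1 of the 3 (27.9% against 7.48%). The 27025 genes were not limited to those expressed in these libraries. A match describes the letters of the window and is not a measured binding site. In Ndufs7 the YY1 match includes the ATG of the start codon (chr10:80249476), which also opens its coding stretch above. The windows of 3 genes whose calls are described below, 1 for each motif, are shown with the matches in capitals. Ndufs7 and Uqcrc1 rose in IR mice, and Uqcrh fell.
Ndufs7, chr10:80249199-80249498, plus strand, YY1: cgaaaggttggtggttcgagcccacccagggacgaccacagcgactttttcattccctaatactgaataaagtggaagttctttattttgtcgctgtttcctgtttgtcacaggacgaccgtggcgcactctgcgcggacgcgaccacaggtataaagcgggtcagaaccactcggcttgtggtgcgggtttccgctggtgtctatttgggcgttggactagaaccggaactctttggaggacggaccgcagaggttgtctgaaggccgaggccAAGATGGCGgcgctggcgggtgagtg
Uqcrc1, chr9:108936398-108936697, plus strand, nuclear respiratory factor 1 on both strands: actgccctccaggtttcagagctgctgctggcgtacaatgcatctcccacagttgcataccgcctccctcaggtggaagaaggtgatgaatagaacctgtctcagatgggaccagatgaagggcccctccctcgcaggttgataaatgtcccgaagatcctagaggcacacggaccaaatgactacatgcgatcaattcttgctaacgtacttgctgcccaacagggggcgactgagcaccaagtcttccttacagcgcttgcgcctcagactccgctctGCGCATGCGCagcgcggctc
Uqcrh, chr4:116075021-116075320, minus strand, ETS: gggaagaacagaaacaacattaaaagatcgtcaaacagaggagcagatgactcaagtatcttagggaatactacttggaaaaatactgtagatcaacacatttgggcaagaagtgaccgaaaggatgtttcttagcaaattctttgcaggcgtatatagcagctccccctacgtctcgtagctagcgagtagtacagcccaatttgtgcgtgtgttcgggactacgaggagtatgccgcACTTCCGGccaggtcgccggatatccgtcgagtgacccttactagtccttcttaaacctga

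In untreated forebrain, levels per kilobase of transcript (the mean CPM of NT divided by the length of the longest annotated coding transcript) were highest for the catalytic beta subunit of ATP synthase, Atp5b, at 886 CPM per kilobase. Cox4i1, the main regulatory subunit of cytochrome c oxidase, followed at 746, Cox6a1 at 718 and Cox8a at 652. The highest in complex III was the core subunit Uqcrc1 (298), in complex I the accessory subunit Ndufb10 (252) and in complex II the flavoprotein Sdha (232). Medians per kilobase over the tested subunits were 84.6 in complex I, 146 in complex II, 138 in complex III, 89.99 in complex IV and 128 in complex V. Summed over all subunits, levels were 12899 to 13336 CPM in NT, 13514 to 13833 in PLX1X, 12889 to 13277 in PLX3X_CD0, 13246 to 13592 in PLX3X_CD30 and 14003 to 15098 in IR, where all 3 libraries lay above every other library. By complex, the sums in NT and IR were 3521 ± 94.4 and 3778 ± 153 CPM (SD, n = 3) for complex I, 1131 ± 75.6 and 1307 ± 42.7 for complex II, 1281 ± 31.2 and 1531 ± 85.4 for complex III, 2592 ± 66.2 and 2901 ± 155 for complex IV, and 4597 ± 149 and 5124 ± 144 for complex V. In PLX1X, PLX3X_CD0 and PLX3X_CD30 the complex IV sums were 2434 ± 7.20, 2295 ± 11.8 and 2484 ± 73.1, and the complex V sums 5069 ± 115, 4835 ± 80.8 and 4863 ± 64.01.

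Genes were compared with edgeR's quasi-likelihood test, with p-values adjusted by Benjamini-Hochberg over 21780 genes and a threshold of 0.05. The 4 treated groups share the 3 NT libraries. In PLX1X mice 15 of 85 subunit genes were higher than in NT and 9 lower, where 9.97% and 8.12% of all tested genes were called in those directions. In PLX3X_CD0 mice 7 were higher and 24 lower (all genes 12.2% and 9.53%), in PLX3X_CD30 mice 4 and 2 (4.74% and 1.84%), and in IR mice 28 and 14 (15.1% and 15.4%). The median log2 fold change of the 85 genes was -0.04, -0.13, -0.07 and 0.08 in that order, against -0.04, -0.03, -0.02 and -0.05 for all genes. Without NT replicate 1 the counts were 13 and 5 in PLX1X, 6 and 18 in PLX3X_CD0, 3 and 0 in PLX3X_CD30, and 27 and 14 in IR. A further fit corrected each library for trends with the length and GC content of the transcript (a per-gene offset, called the length and GC offset below). In it the counts were 15 and 5, 9 and 7, 5 and 3, and 22 and 15. In that fit the shares of all genes were 7.64% and 9.83%, 8.03% and 11.2%, 3.0% and 2.78%, and 9.3% and 13.0%. The gap between both sets of counts was widest for the falls in PLX3X_CD0, of which 6 were called in both. In IR, 17 rises and 7 falls were called in both, and 1 gene was called in opposite directions. Both fits shared 13 rises and 4 falls in PLX1X, 7 rises in PLX3X_CD0, and 4 rises and 0 falls in PLX3X_CD30. Single libraries also moved the counts. Leaving out NT replicate 3 gave 15, 38 and 16 falls in PLX1X, PLX3X_CD0 and PLX3X_CD30, and leaving out NT replicate 2 gave 1 fall in PLX3X_CD30. Leaving out PLX1X replicates 1, 2 and 3 in turn gave 4, 5 and 3 falls there, and without its replicates 1 and 3 there were 9 and 7 rises. Without PLX3X_CD0 replicate 2 its rises numbered 4, and without its replicates 1 and 3 its falls numbered 15 and 12. Without PLX3X_CD30 replicates 1, 2 and 3 its rises numbered 1, 1 and 2, and without replicate 2 or 3 its falls numbered 0 (edgeR). Fitted on the 6 libraries of each comparison alone, rises and falls numbered 3 and 3 in PLX1X, 3 and 10 in PLX3X_CD0 and 0 and 0 in PLX3X_CD30, and falls in IR numbered 7. The 3 rises in PLX1X and the 3 in PLX3X_CD0 were those of Ndufs1, Uqcrc2 and Atp5a1. Every other rise named below in these groups was lost in that fit, as were all calls in PLX3X_CD30.

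The levels of all 3 treated libraries lay above those of all 3 NT libraries for 17 of 85 subunit genes in PLX1X and below them for 19 (all genes 15.9% and 16.1%). The same counts were 10 and 30 in PLX3X_CD0 (all genes 17.0% and 16.7%), 14 and 14 in PLX3X_CD30 (13.3% and 11.1%) and 25 and 14 in IR (18.7% and 21.2%).

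**Figure D1:**
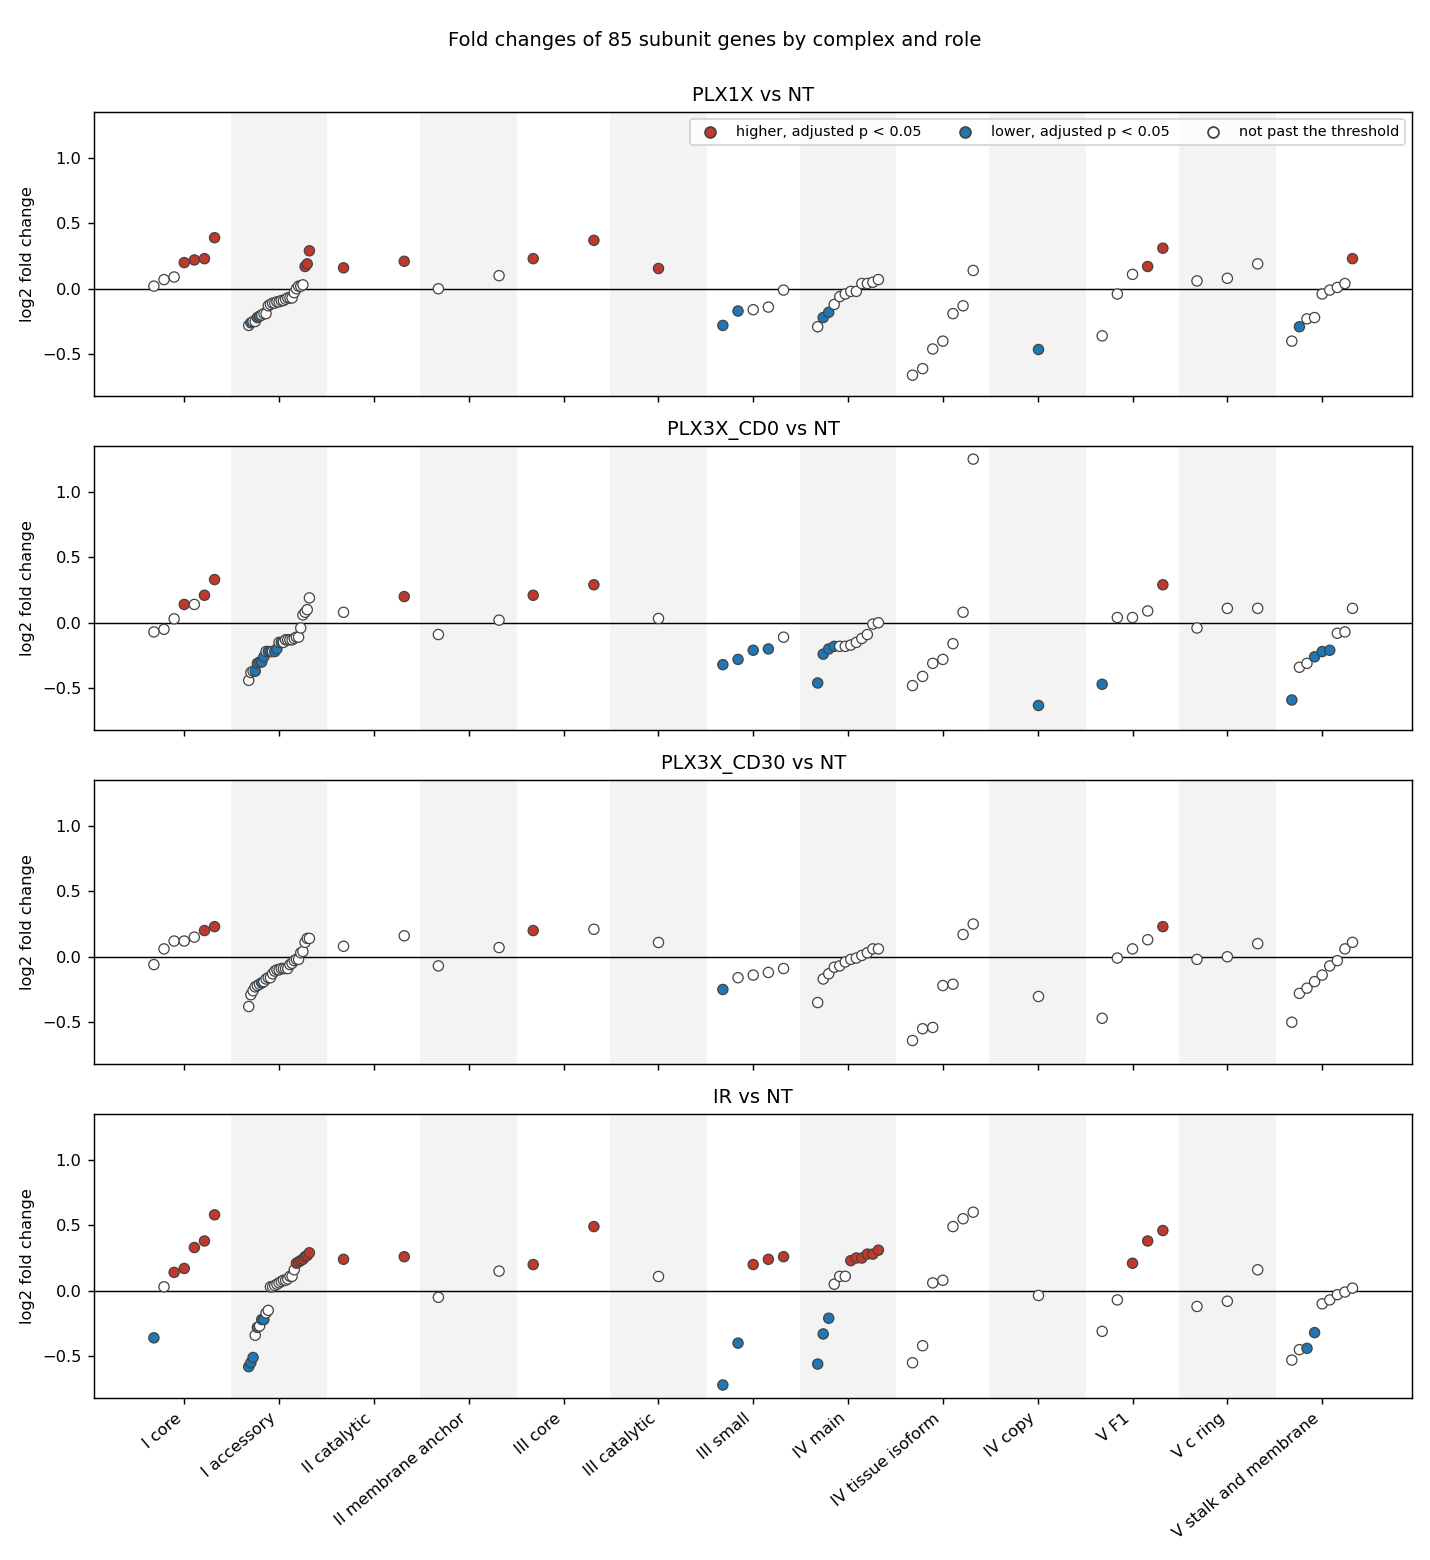
Log2 fold change against NT (vertical axis) of the 85 tested subunit genes, ordered by value within each complex and role (horizontal axis), in PLX1X, PLX3X_CD0, PLX3X_CD30 and IR mice; red and blue points passed an adjusted p of 0.05 upward and downward, and white points did not. In the PLX3X_CD0 panel all 7 red points are core, catalytic or F1 subunits and all but 1 of the 24 blue points lie in the other roles. In the IR panel the 28 red points are spread over both kinds, and all but 1 of the 14 blue points again lie in the other roles. The core, catalytic and F1 roles hold a minority of the 85 genes. They number 7 in complex I, 2 in complex II, 2 core and 1 catalytic in complex III, and 5 in complex V. All 7 red points of the PLX3X_CD0 panel are also transcripts of at least 1500 bases. Whether role or length goes with the calls was not tested.

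Among the 7 nuclear core subunits of complex I, which bind NADH and carry the iron-sulphur clusters, 4 rose in PLX1X, 3 in PLX3X_CD0, 2 in PLX3X_CD30 and 5 in IR, and 1, Ndufv2, fell in IR. Leaving out NT replicate 1, the rises numbered 4, 2, 1 and 3. With the length and GC offset they numbered 5, 4, 2 and 4, and falls numbered 0 in each group. Ndufs1, the largest subunit and a carrier of iron-sulphur clusters, stood at 172, 171 and 164 CPM in NT, 223, 218 and 223 in PLX1X, 211, 212 and 213 in PLX3X_CD0, 197, 200.1 and 196 in PLX3X_CD30 and 177, 167 and 172 in IR. All 9 libraries of the PLX groups were above all NT libraries, and the IR libraries overlapped NT. Ndufs1 rose in PLX1X (log2 fold change 0.39 ± 0.05 SE, adjusted p = 1.33e-05), in PLX3X_CD0 (log2 fold change 0.33 ± 0.05 SE, adjusted p = 4.07e-05) and in PLX3X_CD30 (log2 fold change 0.23 ± 0.05 SE, adjusted p = 0.00608). The PLX1X and PLX3X_CD0 rises passed in all 16 alternative analyses. In PLX3X_CD30 the call was lost when only the 6 libraries compared were fitted (adjusted p = 0.0907). In IR the log2 fold change of Ndufs1 was 0.03 (adjusted p = 0.726).

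Ndufv1, which binds NADH and the flavin cofactor, was at 229.8, 258 and 266 CPM in NT, 296, 285 and 298 in PLX1X, 284, 302 and 286 in PLX3X_CD0, 287, 291 and 290.0 in PLX3X_CD30 and 307, 335 and 337 in IR. None of the 12 treated libraries overlapped NT. It rose in all 4 groups, by log2 0.22, 0.21, 0.20 and 0.38 (adjusted p = 0.0117, 0.0129, 0.0427 and 7.32e-05), and the IR rise passed in all 16 alternatives. The PLX calls were less stable: the PLX1X call was lost on leaving out PLX1X replicate 3 (adjusted p = 0.0509), the PLX3X_CD0 call lost on leaving out PLX3X_CD0 replicate 2 (adjusted p = 0.0565), and the PLX3X_CD30 call lost on leaving out NT replicate 1 or any 1 of the 3 PLX3X_CD30 libraries (adjusted p from 0.0788 to 0.126). Each of these PLX calls was also lost when only the 6 libraries compared were fitted. Ndufs3, a core subunit of the matrix arm, rose in PLX1X by log2 0.23 (adjusted p = 0.00971) and in IR by 0.17 (0.0365). The former call was lost on leaving out PLX1X replicate 3 (adjusted p = 0.0574), and the latter lost on leaving out NT replicate 1 or IR replicate 2 or 3 (adjusted p from 0.0729 to 0.203).

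The largest rise among the subunit genes called in IR was that of Ndufs7, which holds the last iron-sulphur cluster before ubiquinone (chr10:80249121-80256794, plus strand). Its level was 143, 158 and 174 CPM in NT, 168, 153 and 159 in PLX1X, 157, 165 and 163 in PLX3X_CD0, 172, 171 and 172 in PLX3X_CD30 and 211, 252 and 246 in IR. All IR libraries lay above the other 12, and all 9 PLX libraries lay within the NT range. The IR rise (log2 fold change 0.58 ± 0.07 SE, adjusted p = 8.24e-06) passed in all 16 alternatives, though the length and GC offset reduced it to 0.35 (adjusted p = 0.00072). Ndufs8, which carries iron-sulphur clusters, rose by log2 0.33 in IR (adjusted p = 0.000302). Ndufv2, which also holds an iron-sulphur cluster and has a GC content of 42.0%, went the other way: 151, 139.8 and 128 CPM in NT and 114, 102 and 109 in IR (log2 fold change -0.36 ± 0.06 SE, adjusted p = 0.000204). With the offset its log2 fold change was -0.02 (adjusted p = 0.797).

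**Figure D2:**
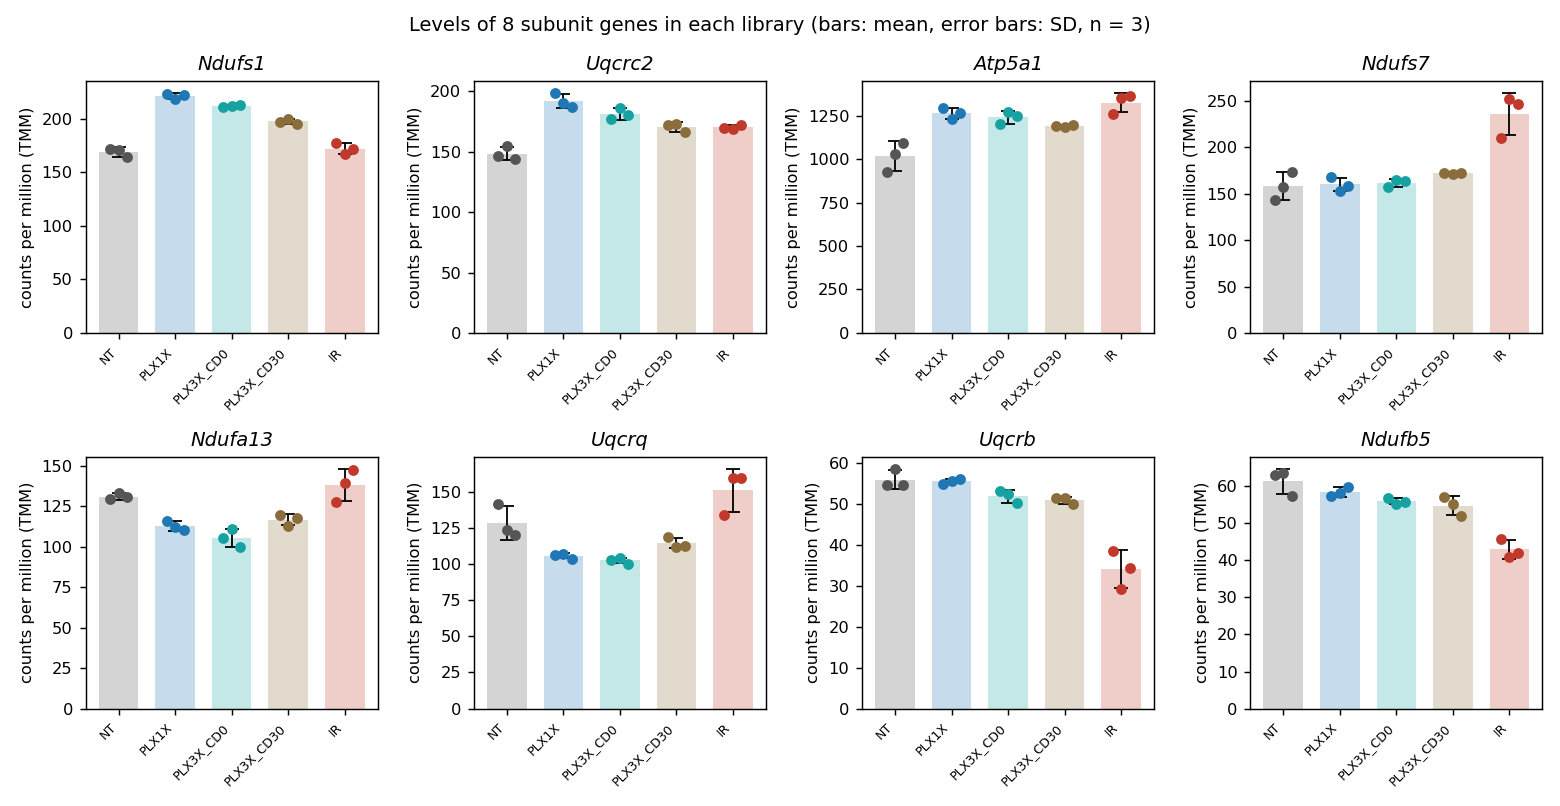
TMM-scaled CPM (vertical axes, starting at 0) of 8 subunit genes in each of the 15 libraries (points) by group (horizontal axes); bars are means and error bars SD of 3 libraries. Ndufs1 and Uqcrc2 are above NT in every PLX library, Ndufs7 is high in IR only (211 to 252 CPM), and Uqcrb and Ndufb5 are low in all 3 IR libraries.

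Among the 29 accessory subunits of complex I, 3 rose and 3 fell in PLX1X, none rose and 10 fell in PLX3X_CD0, none rose and 1 fell in PLX3X_CD30, and 7 rose and 6 fell in IR. Without NT replicate 1 the falls numbered 1, 10, 0 and 6. With the length and GC offset, 1 rose and 3 fell in PLX1X and in PLX3X_CD0. In that fit 1 rose and 1 fell in PLX3X_CD30, and 5 rose and 7 fell in IR. Of the IR calls, 4 rises and 2 falls were made both with and without the offset. The log2 fold changes of the accessory subunits ran from -0.44 to 0.19 in PLX3X_CD0 and from -0.58 to 0.29 in IR. For the rises the counts at an unadjusted p under 0.05 were 2 in PLX3X_CD0 and 2 in PLX3X_CD30, and DESeq2 called 0 and 2. Ndufa13, a membrane-arm subunit also known as GRIM-19, was at 129, 133 and 130.5 CPM in NT, 116, 112 and 110.1 in PLX1X, 105, 111 and 100.1 in PLX3X_CD0, 119.8, 113 and 118 in PLX3X_CD30 and 128, 139.5 and 148 in IR. Every PLX library was below every NT library. It fell in PLX3X_CD0 (log2 fold change -0.31 ± 0.06 SE, adjusted p = 0.000544) in all 16 alternatives, and in PLX1X (log2 fold change -0.22 ± 0.06 SE, adjusted p = 0.0122), where it was lost on leaving out PLX1X replicate 3 (adjusted p = 0.0598) and with a length offset alone. In PLX3X_CD30 its log2 fold change was -0.17 (adjusted p = 0.0906). In IR it was 0.08 (adjusted p = 0.331) and -0.19 with the offset (0.00873), so its IR direction depends on that adjustment.

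Ndufb8, a membrane-arm accessory subunit, was at 91.8, 90.1 and 91.1 CPM in NT, 76.5, 75.8 and 76.5 in PLX3X_CD0, 93.8, 87.9 and 88.1 in PLX3X_CD30 and 98.98, 112 and 117 in IR. It fell in PLX3X_CD0 (log2 fold change -0.26 ± 0.06 SE, adjusted p = 0.00353) and rose in IR (log2 fold change 0.27 ± 0.06 SE, adjusted p = 0.00169), both in all 16 alternatives. In PLX1X its log2 fold change was -0.09 (adjusted p = 0.326). Ndufa3 fell in PLX3X_CD0 from 84.1 ± 7.85 CPM (SD, n = 3) to 64.8 ± 1.30 (log2 fold change -0.37 ± 0.08 SE, adjusted p = 0.00183), and with the offset its adjusted p was 0.0546. Ndufa2, an accessory subunit of the matrix arm, fell in PLX3X_CD0 from 106, 92.4 and 91.1 to 76.04, 81.5 and 77.6 CPM (log2 fold change -0.30 ± 0.07 SE, adjusted p = 0.003), and the value became -0.10 with the offset (0.168). Ndufb11 was the 1 accessory subunit that fell in PLX3X_CD30 (log2 fold change -0.20 ± 0.06 SE, adjusted p = 0.0403), a call lost on leaving out NT replicate 1 or 2 or PLX3X_CD30 replicate 2 or 3 (adjusted p from 0.0854 to 0.169).

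Ndufb5, another membrane-arm accessory subunit, fell in IR from 63.1, 63.5 and 57.4 CPM in NT to 45.9, 41.01 and 42.1 (log2 fold change -0.51 ± 0.06 SE, adjusted p = 4.88e-06), with all IR libraries below the other 12. Ndufa9, an accessory subunit next to the ubiquinone site, rose in IR from 117, 125 and 118 to 138, 141 and 140.3 CPM (log2 fold change 0.22 ± 0.05 SE, adjusted p = 0.00233). Both calls passed in all 16 alternatives. Ndufa5, of the matrix arm, fell in IR (log2 fold change -0.58 ± 0.15 SE, adjusted p = 0.0109). Its NT libraries were spread at 108, 70.7 and 60.8 CPM, and without NT replicate 1 the value was -0.32. Ndufb7, of the membrane arm, rose in IR by log2 0.29 (adjusted p = 0.00152), and with the offset its value was 0.10 (0.28).

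In complex II, which joins the citric acid cycle to the chain, the pair of catalytic subunits and the pair of membrane anchors differed in their calls. Sdha, the flavoprotein that oxidises succinate, was at 626, 692 and 699 CPM in NT, 809, 761 and 768 in PLX1X, 752, 806 and 766 in PLX3X_CD0, 744, 750.3 and 757 in PLX3X_CD30 and 774, 807 and 805 in IR. All 12 treated libraries were above NT. It rose by log2 0.21 in PLX1X (adjusted p = 0.00804), 0.20 in PLX3X_CD0 (0.00867) and 0.24 in IR (0.00169), the last in all 16 alternatives. The PLX1X and PLX3X_CD0 calls were lost when only the 6 libraries compared were fitted. In PLX3X_CD30 the value was 0.16 (adjusted p = 0.081). Sdhb, the iron-sulphur subunit, rose in PLX1X by log2 0.16 (adjusted p = 0.0413) and in IR by 0.26 (0.00103, and 0.0815 with the offset). The PLX1X call was lost on leaving out NT replicate 1 or 2 or PLX1X replicate 1 or 3 (adjusted p from 0.0555 to 0.129). The anchors Sdhc and Sdhd had log2 fold changes from -0.09 (Sdhc in PLX3X_CD0) to 0.15 (Sdhd in IR) in the 4 groups, and neither passed edgeR's test, DESeq2 or an unadjusted p under 0.05 in any of them (count 0 in each). In the fit with the length and GC offset, Sdhc was lower in PLX3X_CD0 (log2 fold change -0.18, adjusted p = 0.0173). The difference between the catalytic and anchor pairs was not tested.

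In complex III, which hands electrons from ubiquinone to cytochrome c, the core subunit Uqcrc2 rose in all 4 treated groups and Uqcrc1 in 3, while between 1 and 4 of the 5 small subunits fell in each PLX group. Uqcrc2 (chr7:120635176-120659524, plus strand) was at 147, 155 and 144 CPM in NT, 199, 191 and 187 in PLX1X, 177, 186 and 180.5 in PLX3X_CD0, 172, 173 and 166 in PLX3X_CD30 and 169.9, 169 and 172 in IR. None of the 12 treated libraries overlapped NT. Its rises in PLX1X (log2 fold change 0.37 ± 0.05 SE, adjusted p = 3.86e-05), PLX3X_CD0 (log2 fold change 0.29 ± 0.05 SE, adjusted p = 0.000265) and IR (log2 fold change 0.20 ± 0.05 SE, adjusted p = 0.00412) passed in all 16 alternatives. In PLX3X_CD30 it rose by log2 0.20 (adjusted p = 0.0181), a call lost on leaving out PLX3X_CD30 replicate 1 or 2 (adjusted p = 0.0697 and 0.0802). In IR the offset raised the value to 0.41.

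Uqcrc1 was at 439, 492 and 544 CPM in NT, 600.4, 557 and 577 in PLX1X, 557, 582 and 563 in PLX3X_CD0, 571, 560.3 and 576 in PLX3X_CD30 and 639, 709 and 726 in IR. The IR rise (log2 fold change 0.49 ± 0.07 SE, adjusted p = 2.55e-05) held in all 16 alternatives. In PLX1X and PLX3X_CD0 it rose by log2 0.23 and 0.21 (adjusted p = 0.0206 and 0.0342). The former call was lost on leaving out PLX1X replicate 1 or 3 (adjusted p = 0.0805 and 0.0595), and the latter lost on leaving out NT replicate 1 or 2 or any 1 of the 3 PLX3X_CD0 libraries (adjusted p from 0.0653 to 0.111). In PLX3X_CD30 the value was 0.21 (0.0665). The Rieske iron-sulphur protein Uqcrfs1 rose in PLX1X (log2 fold change 0.16 ± 0.05 SE, adjusted p = 0.0322), a call lost on leaving out NT replicate 2 or PLX1X replicate 1 or 3 (adjusted p from 0.0612 to 0.095). It had values of 0.04, 0.11 and 0.11 in the other 3 groups, none past the threshold, and the differences between groups were not tested.

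Of the 5 small subunits, 2 fell in PLX1X, 4 in PLX3X_CD0 and 1 in PLX3X_CD30, and none rose in these groups (0 also at an unadjusted p under 0.05 and in DESeq2). In IR 3 rose and 2 fell. With NT replicate 1 left out, the falls of small subunits numbered 1, 3 and 0 in the PLX groups. With the length and GC offset they numbered 1, 1 and 0, and in IR 2 rose and 2 fell. Uqcrq, a small subunit close to cytochrome b, was at 141, 124 and 119.8 CPM in NT, 106, 107 and 104 in PLX1X, 102, 104 and 100.2 in PLX3X_CD0, 119, 112 and 113 in PLX3X_CD30 and 134, 159.5 and 159 in IR. Its falls in PLX1X (log2 fold change -0.28 ± 0.07 SE, adjusted p = 0.00842) and PLX3X_CD0 (log2 fold change -0.32 ± 0.07 SE, adjusted p = 0.0021) passed in all 16 alternatives. In IR it rose (log2 fold change 0.24 ± 0.07 SE, adjusted p = 0.0134) with 1 library, 134 CPM, inside the NT range, and the IR call was lost on leaving out NT replicate 3 or IR replicate 2 or 3 (adjusted p from 0.0507 to 0.0747). Uqcr10 and Uqcr11, small membrane subunits, fell in PLX3X_CD0 (log2 fold changes -0.20 and -0.21, adjusted p = 0.0165 and 0.0134). The Uqcr10 call was lost on leaving out NT replicate 1 or PLX3X_CD0 replicate 2 or 3 (adjusted p from 0.0503 to 0.0672), and with the offset these values were 0.03 and 0.02 (0.776 and 0.863).

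The largest fall among the subunit genes called in IR was that of Uqcrb, which contacts the ubiquinone-binding region of complex III. Uqcrb was at 54.5, 58.6 and 54.6 CPM in NT, 54.98, 55.7 and 56.04 in PLX1X, 53.2, 52.3 and 50.1 in PLX3X_CD0, 51.3, 51.4 and 49.9 in PLX3X_CD30 and 38.5, 29.3 and 34.4 in IR. The IR libraries were the 3 lowest of the 15. The fall (log2 fold change -0.72 ± 0.07 SE, adjusted p = 1.42e-06) passed in all 16 alternatives, and with the length and GC offset it was -0.37 (adjusted p = 0.0114). Uqcrh, the hinge protein that helps dock cytochrome c, fell in IR from 104, 93.00 and 84.5 to 70.7, 67.6 and 74.5 CPM (log2 fold change -0.40 ± 0.07 SE, adjusted p = 0.000164), also in all 16. It fell in PLX3X_CD0 and PLX3X_CD30 (log2 fold changes -0.28 and -0.25, adjusted p = 0.00491 and 0.0283), and neither passed with the offset (0.445 and 0.297). The PLX3X_CD30 call was lost on leaving out NT replicate 1 or any 1 of the 3 PLX3X_CD30 libraries (adjusted p from 0.0614 to 0.143).

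Among the 12 widely expressed subunits of cytochrome c oxidase (complex IV, with Ndufa4 counted here because its protein belongs to this complex), 2 fell in PLX1X, 4 in PLX3X_CD0 and none in PLX3X_CD30, and none rose in these groups (0 also at an unadjusted p under 0.05 and in DESeq2). For the falls in PLX3X_CD30 the count was 1 at an unadjusted p under 0.05 and 0 in DESeq2. In IR 6 rose and 3 fell. With the length and GC offset 0 of the 12 were called in each PLX group, and 4 rose and 1 fell in IR. Cox8a, a small membrane subunit, was at 356, 366 and 354 CPM in NT, 302, 308 and 314 in PLX1X, 313, 308 and 316 in PLX3X_CD0, 352, 321 and 342 in PLX3X_CD30 and 403, 448 and 427 in IR. It fell in PLX1X and PLX3X_CD0 (log2 -0.22 and -0.20, adjusted p = 0.00531 and 0.00826) and rose in IR (0.25, 0.00112). With the offset the 3 values were -0.05, -0.01 and 0.09, and none passed. Cox6a1, another small subunit, also fell in PLX1X and PLX3X_CD0 and rose in IR, with log2 fold changes of -0.18, -0.24 and 0.28 (adjusted p = 0.0305, 0.00408 and 0.000817) that became -0.01, -0.05 and 0.11 with the offset. Its PLX1X call was lost on leaving out NT replicate 2 or 3 or any 1 of the 3 PLX1X libraries (adjusted p from 0.0712 to 0.119).

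Cox4i1 rose in IR from 515, 595 and 602 to 649, 742 and 738 CPM (log2 fold change 0.31 ± 0.06 SE, adjusted p = 0.00106), and with the offset by 0.14 (0.192). Cox5a, a regulatory subunit on the matrix side, rose in IR by log2 0.23 (adjusted p = 0.0315), a call lost on leaving out NT replicate 2 or 3 or IR replicate 2 or 3 (adjusted p from 0.0931 to 0.156). Cox6b1, which faces cytochrome c, rose from 186, 212 and 209 to 235, 251 and 254 CPM (log2 fold change 0.28 ± 0.06 SE, adjusted p = 0.000673) in all 16 alternatives. Cox7c fell in IR (log2 fold change -0.33, adjusted p = 0.00554) but was higher by 0.23 with the offset (0.0474), the 1 subunit gene called in opposite directions by those fits in IR. Cox5b-ps, annotated as protein coding but named as a pseudogene of Cox5b, made up 40.4% of the summed per-length level of both in NT replicate 1 and 20.1% to 25.3% in the other 14 libraries. Reads of near-identical copies may be assigned to either, so its falls in PLX1X and PLX3X_CD0 (log2 fold changes -0.46 and -0.63) are uncertain, and the PLX1X call was lost on leaving out NT replicate 1 or any 1 of the 3 PLX1X libraries (adjusted p from 0.0614 to 0.206).

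Tissue-restricted isoforms of complex IV stayed rare. As a share of the summed per-length level of each pair in NT, the lung-type Cox4i2 was 0.472% ± 0.17 (SD, n = 3) of Cox4i1 plus Cox4i2, the heart and muscle isoforms Cox6a2 and Cox7a1 were 1.6% ± 0.66 and 0.84% ± 0.049 of their pairs, the testis isoform Cox6b2 was 0.799% ± 0.29 and the hypoxia-linked Ndufa4l2 was 0.972% ± 0.11 of Ndufa4 plus Ndufa4l2. Across all 15 libraries Cox4i2 ranged from 0.182% to 0.671%, Cox6a2 from 1.07% to 2.35%, and Ndufa4l2 from 0.671% to 1.2%. The highest Cox4i2 and Cox6a2 shares were those of NT replicate 1. Of the 7 isoforms tested, none passed edgeR's test in any of the 4 groups; at an unadjusted p under 0.05 there were 2 lower in PLX1X, 1 lower in PLX3X_CD30 and 1 higher in IR, and DESeq2 called 0. Without NT replicate 1, edgeR called 1 higher in IR.

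In ATP synthase, Atp5a1, the alpha subunit of the catalytic F1 head, was at 927, 1032 and 1096 CPM in NT, 1296, 1234 and 1267 in PLX1X, 1204, 1274 and 1249 in PLX3X_CD0, 1191, 1184 and 1199 in PLX3X_CD30 and 1264, 1356 and 1363 in IR, with no overlap between NT and any treated group. Its rises in PLX1X (log2 fold change 0.31 ± 0.06 SE, adjusted p = 0.000891), PLX3X_CD0 (log2 fold change 0.29 ± 0.06 SE, adjusted p = 0.00134) and IR (log2 fold change 0.38 ± 0.06 SE, adjusted p = 6.46e-05) passed in all 16 alternatives. In PLX3X_CD30 it rose by log2 0.23 (adjusted p = 0.0237), a call lost on leaving out any 1 of the 3 PLX3X_CD30 libraries (adjusted p from 0.0743 to 0.0873). Atp5b, the beta subunit, rose in PLX1X by log2 0.17 and in IR by 0.21 (adjusted p = 0.0356 and 0.00769). The PLX1X call was lost on leaving out PLX1X replicate 1 or 3 (adjusted p = 0.0912 and 0.119). Atp5d, the delta subunit of the rotor stalk, rose in IR from 241, 241 and 275 to 321, 358 and 359.7 CPM (log2 fold change 0.46 ± 0.06 SE, adjusted p = 2.31e-05) in all 16 alternatives, with values of -0.04, 0.04 and 0.06 in the PLX groups, none past the threshold. Atp5g1, Atp5g2 and Atp5g3, which encode the same mature c-ring protein, did not pass edgeR's test in any of the 4 groups. DESeq2 called 1 higher in PLX1X and 1 lower in IR, and an unadjusted p under 0.05 gave 1 higher in PLX1X and 1 higher and 1 lower in IR.

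Of the 9 stalk and membrane subunits tested, 1 rose and 1 fell in PLX1X, 4 fell in PLX3X_CD0 and 2 fell in IR. Atp5pb, the b subunit of the outer stalk, rose in PLX1X from 191, 214 and 207 to 239, 233 and 245 CPM (log2 fold change 0.23 ± 0.05 SE, adjusted p = 0.00434), while Atp5j2, the f subunit, fell from 126, 105 and 98.4 to 85.9, 92.2 and 90.2 (log2 fold change -0.29 ± 0.07 SE, adjusted p = 0.00758). The Atp5pb call was lost when only the 6 libraries compared were fitted. Atp5j, coupling factor 6 of the outer stalk, fell in IR from 190.4, 177 and 156 to 142, 142 and 136 CPM (log2 fold change -0.32 ± 0.06 SE, adjusted p = 0.00059) in all 16 alternatives. Atp5o, which joins the stalk to the F1 head, fell in PLX3X_CD0 (log2 fold change -0.26 ± 0.07 SE, adjusted p = 0.0138), a call lost on leaving out NT replicate 1 or PLX3X_CD0 replicate 3 (adjusted p = 0.0897 and 0.0595). Without NT replicate 1 the falls in this set in PLX3X_CD0 numbered 1. With the length and GC offset 1 rose and 1 fell in PLX1X, 1 fell in PLX3X_CD0, 1 fell in PLX3X_CD30 and 3 fell in IR.

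The 85 subunit transcripts had a median length of 861 bases (360 to 4715), against 2588 for all tested genes, and a median GC content of 51.6% against 49.6%. In PLX3X_CD0, 13 of the 30 subunit genes under 700 bases fell and none rose, whereas 7 of the 20 with at least 1500 bases rose and 4 fell. Among all tested genes under 700 bases, 244 of 2119 fell and 7 rose, and 111 fell without NT replicate 1. Among all tested genes with at least 1500 bases, 16.3% rose and 9.31% fell in PLX3X_CD0. In PLX1X 10 of the 20 long subunit transcripts rose and 2 fell (all genes of that class 13.1% and 8.65%). No short one rose in PLX1X (0 at an unadjusted p under 0.05 and in DESeq2); in PLX3X_CD0 these counts were also 0. Without NT replicate 1, 2 short subunit genes fell in PLX1X. In IR, 17 of the 40 subunit genes with at least 52% GC rose and 2 fell, against 1 and 8 of the 13 with under 46%. Over all tested genes in those classes, 2253 rose and 334 fell of 7999, against 226 and 2161 of 6618.

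As a description across genes, which are not independent replicates and share libraries, Spearman's rho of the log2 fold change with transcript length over the 85 genes was 0.49 in PLX1X, 0.45 in PLX3X_CD0, 0.42 in PLX3X_CD30 and 0.07 in IR. Over all genes with a known transcript it was 0.21, 0.29, 0.18 and 0.07. With GC content, rho in IR was 0.36 over the subunit genes and 0.45 over all genes. The offset took the length values of the subunit genes to 0.18, 0.09 and 0.13 in the PLX groups and the GC value in IR to -0.12. Whether the shifts with length and GC come from the libraries or from the tissue was not tested. The calls that stood in all 16 alternatives, this offset included, were 3 rises and 1 fall in PLX1X, 3 rises and 3 falls in PLX3X_CD0, none in PLX3X_CD30, and 10 rises and 4 falls in IR. The offset took each gene's length from its longest annotated coding transcript. For the 3 falls in PLX3X_CD0, Ndufa13, Ndufb8 and Uqcrq, this was 1251, 2142 and 1521 bases. Uqcrq was also the 1 fall in PLX1X, and Ndufb8 was among the 10 rises in IR. Both were higher in IR than in PLX3X_CD30 in all 15 alternatives of that comparison. Whether these calls would pass the offset with the length of a shorter transcript was not tested.

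**Figure D3:**
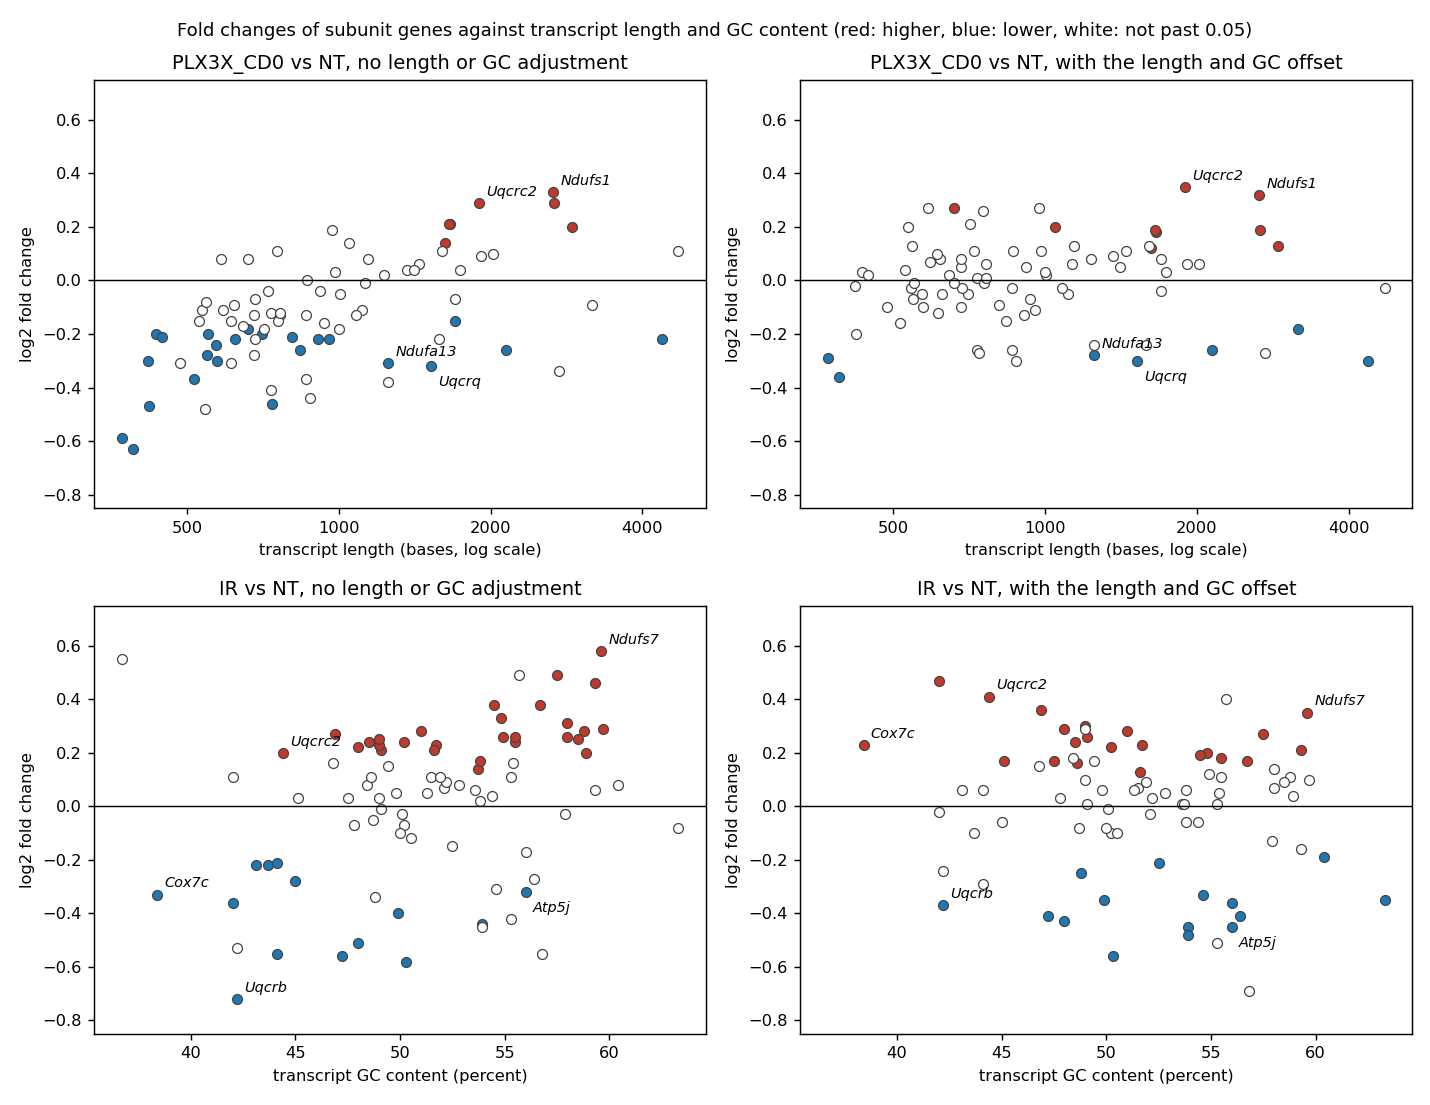
Log2 fold change (vertical axes) of 84 tested subunit genes against transcript length in bases on a log scale (top, PLX3X_CD0 against NT) and against transcript GC content in percent (bottom, IR against NT), without (left) and with (right) the length and GC offset; red, blue and white mark higher, lower and no call, and Cox8b, at under 1 CPM in every library, is left out. The upward slope of the left panels (Spearman 0.45 and 0.36 over all 85 genes) is nearly flat on the right, where Uqcrc2 and Ndufs1 (top) and Ndufs7 and Uqcrb (bottom) stay away from 0.

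**Figure D4:**
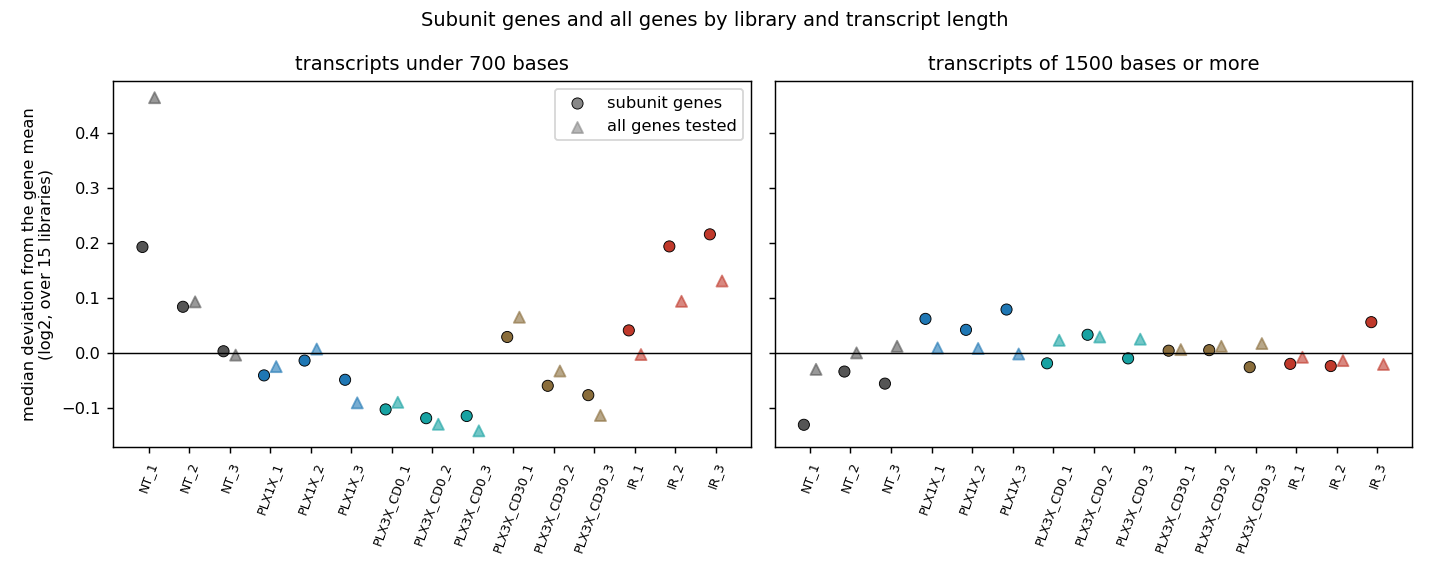
Median deviation from each gene's 15-library mean (log2, vertical axis) in each library (horizontal axis) for subunit genes (circles) and all tested genes (triangles) with transcripts under 700 bases (left) and at least 1500 bases (right); colours mark the 5 groups. NT replicate 1 is highest for short genes overall (0.465) and lowest for long subunit genes (-0.131), and the short subunit genes are lowest in the 3 PLX3X_CD0 libraries.

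PLX3X_CD30 was also set against PLX3X_CD0, the pair that shares the PLX3X name, in a comparison without NT. There 2 subunit genes were higher and 0 lower (all genes 1.87% and 1.93%; at an unadjusted p under 0.05 the subunit counts were 14 and 1, and DESeq2 called 2 and 0). With the length and GC offset the counts were 1 and 0 (all genes 2.34% and 0.969%). Ndufb8 was higher in PLX3X_CD30 (log2 fold change 0.24 ± 0.06 SE, adjusted p = 0.0235), as was Cox6a1 (log2 fold change 0.20 ± 0.06 SE, adjusted p = 0.049), at 415, 389 and 394 against 344, 337 and 361 CPM. The Ndufb8 call was lost on leaving out any 1 of the 3 PLX3X_CD0 libraries or any 1 of the 3 PLX3X_CD30 libraries (adjusted p from 0.0532 to 0.15), and the Cox6a1 call lost on leaving out any 1 of the 3 PLX3X_CD0 libraries or any 1 of the 3 PLX3X_CD30 libraries (adjusted p from 0.0752 to 0.252). Levels of 28 subunit genes did not overlap with PLX3X_CD30 the higher group, and of 3 with it the lower (all genes 12.1% each way).

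IR was set against PLX3X_CD30, whose microglial marker sums were close to those of IR. In IR 22 subunit genes were higher and 5 lower (all genes 7.63% and 8.88%), and with the length and GC offset 6 and 6 (all genes 1.97% and 2.83%). Both fits shared 4 of the higher and 3 of the lower calls. Calls in all 15 alternatives were made for 5 genes. Ndufa2, Ndufb8 and Uqcrq were higher in IR, by log2 0.36, 0.28 and 0.40 (adjusted p = 0.00113, 0.0026 and 0.000779). Ndufb5 and Uqcrb were lower, by log2 -0.35 and -0.58 (adjusted p = 0.000702 and 6.76e-05). Ndufs1 was lower in IR (log2 fold change -0.20 ± 0.05 SE, adjusted p = 0.00531) and Ndufs7 higher (log2 fold change 0.46 ± 0.07 SE, adjusted p = 0.000343), and neither passed with the offset (adjusted p = 0.552 and 0.0633). Uqcrc2 did not pass (adjusted p = 0.991) and was higher by log2 0.17 with the offset (0.0401). Levels of 36 subunit genes were higher in all 3 IR than in all 3 PLX3X_CD30 libraries, and those of 19 lower (all genes 18.5% and 18.7%).

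Other genes of the same metabolism gave a frame for these values. Beside each list below stand the shares of all tested genes that rose and fell. These were 9.97% and 8.12% in PLX1X, 12.2% and 9.53% in PLX3X_CD0, 4.74% and 1.84% in PLX3X_CD30 and 15.1% and 15.4% in IR. Of the 13 protein-coding genes of mitochondrial DNA, 7 fell in PLX1X, 10 in PLX3X_CD0, 6 in PLX3X_CD30 and 13 in IR. Their summed levels were 4896 to 5124 CPM in NT, 3579.9 to 3908 in PLX1X, 3328 to 3821 in PLX3X_CD0, 3821 to 4088 in PLX3X_CD30 and 2942 to 3428 in IR. mt-Cytb, the cytochrome b of complex III, fell by log2 0.71 in IR (adjusted p = 4.49e-07). With the offset 3, 4, 1 and 3 fell, and 1 rose in IR. Of 18 genes of pyruvate dehydrogenase and the citric acid cycle, 11 rose and 1 fell in PLX1X, 8 and 1 in PLX3X_CD0, 6 rose in PLX3X_CD30, and 9 rose and 3 fell in IR (1 without NT replicate 1). With the offset 12 rose and 1 fell in PLX1X, 9 and 1 in PLX3X_CD0, 3 and 1 in PLX3X_CD30, and 9 and 0 in IR. Without NT replicate 1, 4 rose in PLX3X_CD30. Suclg2, a subunit of succinyl-CoA ligase, was the 1 that fell in PLX1X and in PLX3X_CD0 (log2 fold changes -0.28 and -0.30). Pdha1, the catalytic alpha subunit of pyruvate dehydrogenase, rose by log2 0.38, 0.36, 0.30 and 0.34 (adjusted p = 7.6e-05, 7.12e-05, 0.00223 and 9.01e-05). Of 17 identifiers for glycolytic enzymes, 12, 12, 12 and 13 rose in the 4 groups in turn, and 1 (Aldoc, also an astrocyte marker) fell in PLX1X and PLX3X_CD0 (log2 fold changes -0.25 and -0.24). With the offset the glycolytic rises numbered 12, 13, 10 and 10. Hk1, the hexokinase of brain, rose by log2 0.38, 0.42, 0.38 and 0.64 (adjusted p = 0.000496, 0.000135, 0.00204 and 1.57e-06).

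Assembly factors insert cofactors and join subunits without staying in the complex. Of 44 tested assembly factors, 5 rose and 3 fell in PLX1X, 3 and 3 in PLX3X_CD0, 1 rose in PLX3X_CD30, and 5 rose and 6 fell in IR. As shares these were 11.4% and 6.82%, 6.82% and 6.82%, 2.27% and 0%, and 11.4% and 13.6%, near or under those of all tested genes. Ndufaf4, a complex I assembly factor, fell in IR (log2 fold change -0.73, adjusted p = 2.01e-06), and Cox15, which makes heme a, rose in the PLX groups by log2 0.31, 0.40 and 0.25 (adjusted p = 0.00435, 0.000425 and 0.0387). Cox15 was the 1 rise in PLX3X_CD30, and no assembly factor was called there in the fit without NT replicate 1 or in that with the offset (Cox15 adjusted p = 0.114 in the latter). In PLX1X 1 assembly factor fell without that library. Of 77 mitochondrial ribosomal proteins, 8 and 4, 2 and 9, 1 and 2, and 9 and 16 rose and fell in PLX1X, PLX3X_CD0, PLX3X_CD30 and IR. These became 8 and 2, 0 and 5, 0 and 0, and 9 and 15 without NT replicate 1. With all libraries the shares of the 77 were 10.4% and 5.19%, 2.60% and 11.7%, 1.30% and 2.60%, and 11.7% and 20.8%. Of 14 regulators of mitochondrial gene expression, none was called in PLX1X or PLX3X_CD30 (edgeR and DESeq2; at an unadjusted p under 0.05 2 higher and 1 lower in PLX1X, 1 and 1 in PLX3X_CD30), 2 rose and 2 fell in PLX3X_CD0, and 2 rose and 4 fell in IR. Ppargc1b, a coactivator of mitochondrial biogenesis, fell in PLX3X_CD0 and IR (log2 fold changes -0.25 and -0.29, adjusted p = 0.00612 and 0.00169). Yy1, whose motif is shown above, fell in PLX3X_CD0 (log2 fold change -0.36, adjusted p = 0.00963), and Gabpa, the DNA-binding subunit of GA-binding protein, fell in IR (log2 fold change -0.41, adjusted p = 0.00177, and 0.142 with the offset). Polrmt, the mitochondrial RNA polymerase, rose in PLX3X_CD0 and IR by log2 0.22 and 0.44 (adjusted p = 0.0276 and 9.93e-05), and neither call held with the offset, where the values were 0.10 and 0.07 (0.17 and 0.353). In PLX3X_CD0 1 regulator rose without NT replicate 1.

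Markers of cell types moved with the groups, and their part in the subunit values was not tested. The microglial list fell at 15, 15, 8 and 9 of 16 genes in PLX1X, PLX3X_CD0, PLX3X_CD30 and IR. Of 14 neuronal markers 6, 7, 5 and 7 rose and 1 fell in each group (Dlg4 in the PLX groups, Gad2 in IR), and their summed level was 9660.3 to 10740.3 CPM in NT and 12323 to 13272 in IR. Of 11 myelin markers 2, 5, 1 and 8 fell, with sums of 7628 to 9387 CPM in NT and 5512 to 6067 in IR. Of 9 striatal markers 6 fell in IR (sums 2862 to 3124 in NT and 1571 to 2397 in IR), and of 11 astrocyte markers 5, 8, 2 and 3 fell. Without NT replicate 1, 8 astrocyte markers fell in PLX1X, 3 myelin markers in PLX3X_CD0, and no neuronal marker in PLX3X_CD30 or IR. No gene of these 5 lists was at 0 in all libraries of a group. Summed thalamic markers were uneven in NT, at 388, 164 and 274 CPM in replicates 1, 2 and 3. Of 7 thalamic markers 2 fell in PLX3X_CD0 and 3 in IR, and 1 in each without NT replicate 1. Of 8 endothelial markers 1 fell in PLX1X and 3 in IR, and of 8 pericyte markers 1 rose and 1 fell in IR.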

How the data were processed

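cDNA was made from total forebrain RNA with a SMARTer Ultra Low kit, sheared, and sequenced in pairs, per the labels' protocols. The authors deposited 1 table of read counts per Ensembl gene for the 15 libraries; the submitters' processing notes name DRAGEN, DESeq2 and mm10, with no roles or versions. Strand handling and the annotation release are not stated there, so reads of overlapping or near-identical genes cannot be assigned with certainty. Among counts of 1 to 4, 70.6% to 74.7% per library were even, so both mates of a pair may have been counted. A deposited CPM table was not used. The table's 287 repeated rows were removed, leaving 55487 identifiers.

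Subunit genes were found by name, with complexes and roles assigned by hand; they and the other gene lists were chosen with earlier results of these data known. Genes named in the text are a fixed set of core and isoform genes, the 3 lowest adjusted p-values per complex and comparison and the largest rise and fall; others named beside them were chosen after their values were seen. 1 gene of the fixed set is not reported here. edgeR 4.0.16 (TMM scaling, filterByExpr, robust glmQLFit with a mean per group over all 15 libraries, glmQLFTest) tested 21780 genes. CPM are TMM-scaled. The length and GC offset is a loess fit (span 0.3) of each library's log counts on transcript length and GC content from GENCODE M21. The alternatives were RLE scaling, DESeq2 1.42.0, no low-count filter, CPM of at least 1 in 3 libraries, the 6 libraries compared alone, a replicate block, that offset, and each library left out; length alone, GC alone and the offset without NT replicate 1 were chosen after seeing the data. The scripts were tested on simulated counts. Python 3.11.15, pandas 2.3.3 and matplotlib 3.10.9 were used.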

Additional observations from a re-analysis of the deposited data

How the results depend on the processing

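Over 240 pairs of a named gene and a comparison, the alternatives gave 3392 values with the same direction and call, 268 that kept the direction but lost the call, 67 that gained one and 16 that reversed. Deviations of same-numbered libraries were little correlated (-0.09 to 0.136), which cannot show whether those libraries were handled together. The fit with a replicate block gave 15 higher and 7 lower in PLX1X, 6 and 21 in PLX3X_CD0 and 4 and 2 in PLX3X_CD30. It gave 28 and 14 in IR, 1 higher for PLX3X_CD30 over PLX3X_CD0 (2 without the block) and 22 and 4 for IR over PLX3X_CD30. Leaving out 1 library gave 7 to 15 higher and 3 to 15 lower in PLX1X, 4 to 7 and 12 to 38 in PLX3X_CD0, 1 to 6 and 0 to 16 in PLX3X_CD30, 20 to 31 and 10 to 20 in IR, 0 and 0 for PLX3X_CD30 over PLX3X_CD0, and 17 to 29 and 4 to 5 for IR over PLX3X_CD30.

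The length and GC offset gave 5 lower in PLX1X, 7 lower in PLX3X_CD0, 1 higher for PLX3X_CD30 over PLX3X_CD0 and 6 higher for IR over PLX3X_CD30. It reversed the medians to 0.06, 0.02 and 0.02 in PLX1X, PLX3X_CD0 and PLX3X_CD30, Uqcr10 in PLX3X_CD0 to 0.03, Ndufa13 and Ndufa4 in IR to -0.19 and 0.06, and Ndufa13 and Uqcrc2 in IR over PLX3X_CD30 to -0.00 and 0.17. Length alone gave 5 lower in PLX1X, 11 higher and 6 lower in PLX3X_CD0, 0 higher for PLX3X_CD30 over PLX3X_CD0 and 9 lower for IR over PLX3X_CD30, with medians of 0.07, 0.02 and 0.04 and, in PLX3X_CD0, Cox7a2 at 0.01, Cox8a at 0.02 and Uqcr10 at 0.05. GC alone gave 4 lower in PLX3X_CD30, 17 higher in IR and 7 higher for IR over PLX3X_CD30, an IR median of -0.03, Cox8a and Ndufa13 in IR at -0.02 and -0.22, and Ndufa13 and Ndufv1 in IR over PLX3X_CD30 at -0.02 and -0.01. The offset without NT replicate 1 gave 3 lower in PLX1X (median 0.02), 8 lower in PLX3X_CD0, 2 higher and 0 lower in PLX3X_CD30 and 16 higher in IR, where Cox6a1 was -0.01, Ndufa13 -0.19, Ndufa4 0.01 and Ndufs3 -0.04. The 6 libraries alone gave 3 and 3 in PLX1X, 3 and 10 in PLX3X_CD0, 0 and 0 in PLX3X_CD30, 7 lower in IR, 7 higher for PLX3X_CD30 over PLX3X_CD0 and 13 lower for IR over PLX3X_CD30. No filter gave 2 and 10 in PLX3X_CD30, DESeq2 9 and 5, and RLE scaling or no filter gave 1 higher for PLX3X_CD30 over PLX3X_CD0. The causes of these moves were not tested beyond what each alternative removes.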
